A study of Homo sapiens with 8 samples.

Results

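The genes described here make the MHC class I display system and its inducible proteasome, and were followed in L363 cells given MLN120B against cells given DMSO. L363 is an established line of malignant human plasma cells. MLN120B blocks IKKβ, a kinase whose activity sets NF-κB free from its inhibitor proteins. The 9 listed genes were HLA-B, HLA-C, HLA-E, HLA-G, B2M, TAP1, PSMB8, PSMB9 and PSMB10, and their array features were chosen by the platform's gene annotation, with a value on at least 6 arrays. Of 15246 features, 24 were annotated to a listed gene and 23 met the rule. They covered 7 genes, with 5 features for HLA-B, 8 for HLA-E, 2 for HLA-G, 2 for B2M, 1 for TAP1, 2 for PSMB9 and 3 for PSMB10. No feature was annotated to HLA-C or PSMB8, while 5073 features on the array had no gene listed.

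All cells received 12.5 µM MLN120B or the solvent DMSO at 37 °C, per the labels. Treatment lasted 8 h in 2 samples, 12 h in 3 and 24 h in 3. Each sample was hybridised to its own 2-colour array, with treated RNA in Cy5 and RNA from DMSO-treated cells in Cy3. Values are log2 ratios centred on the median of their array. A negative value likely means a lower level with MLN120B, although the files do not state which dye is on top of the ratio. With the sign turned every direction below would reverse and every size would stay. The dyes were the same way round on all arrays, so treatment and dye bias cannot be told apart. The labels name no separate cultures, so the p-values rest on a spread between samples that may be technical alone.

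MHC class I molecules show short peptides from inside the cell to CD8 T cells and to natural killer cells. The immunoproteasome, in which PSMB8, PSMB9 and PSMB10 replace the catalytic subunits of the standard proteasome, cuts proteins into such peptides, and the TAP transporter moves them into the endoplasmic reticulum. There a heavy chain (HLA-B, HLA-C, HLA-E or HLA-G) binds a peptide together with the light chain β2-microglobulin, encoded by B2M. Class I promoters are known for an enhancer that NF-κB can bind and for an element that interferon-activated factors bind. Plasma cells carry class I molecules on their surface.

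RefSeq promoter windows, from 250 bases before to 50 after a start in GRCh38.p14, were found for 8 of the 9 genes (12 windows). The windows below are shown because they belong to the genes with ratios farthest from 0 (HLA-G, TAP1, PSMB9) and to the heavy and light chains set beside them. TAP1 and PSMB9 are neighbours on chromosome 6 that are read in opposite directions, and their starts lie 488 bases apart. Capitals mark matches to the NF-κB decamer consensus or to GAAANNGAA, the core of the interferon-stimulated response element, on either strand. HLA-G has 3 windows and TAP1 has 2. For each of these genes only the window with such a match is printed, and the windows not shown hold none.
TAP1 (chr6:32853655-32853954, strand -): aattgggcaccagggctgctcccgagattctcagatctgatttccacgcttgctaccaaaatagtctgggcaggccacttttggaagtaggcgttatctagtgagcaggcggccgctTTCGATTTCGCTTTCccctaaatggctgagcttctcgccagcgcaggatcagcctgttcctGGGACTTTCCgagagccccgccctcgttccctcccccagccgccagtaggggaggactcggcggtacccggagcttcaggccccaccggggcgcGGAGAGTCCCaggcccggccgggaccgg
PSMB9 (chr6:32853942-32854241, strand +): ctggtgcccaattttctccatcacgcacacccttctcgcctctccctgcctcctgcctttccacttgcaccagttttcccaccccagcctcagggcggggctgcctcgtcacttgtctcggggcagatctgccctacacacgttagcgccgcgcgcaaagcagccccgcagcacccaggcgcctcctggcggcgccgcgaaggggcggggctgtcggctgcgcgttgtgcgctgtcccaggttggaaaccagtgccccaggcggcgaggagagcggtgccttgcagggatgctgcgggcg
HLA-B (chr6:31357130-31357429, strand -): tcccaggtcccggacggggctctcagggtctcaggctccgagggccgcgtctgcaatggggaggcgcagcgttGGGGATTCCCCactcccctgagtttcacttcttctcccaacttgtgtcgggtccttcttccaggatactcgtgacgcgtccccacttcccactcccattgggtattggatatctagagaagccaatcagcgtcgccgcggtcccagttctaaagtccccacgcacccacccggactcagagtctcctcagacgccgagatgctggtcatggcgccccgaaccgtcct
HLA-G (chr6:29827575-29827874, strand +): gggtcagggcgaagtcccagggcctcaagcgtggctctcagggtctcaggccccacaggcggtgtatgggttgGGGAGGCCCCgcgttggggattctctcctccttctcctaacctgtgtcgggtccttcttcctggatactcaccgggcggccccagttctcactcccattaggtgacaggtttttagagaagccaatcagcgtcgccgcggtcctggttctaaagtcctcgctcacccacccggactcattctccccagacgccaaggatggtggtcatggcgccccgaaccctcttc
B2M (chr15:44711267-44711566, strand +): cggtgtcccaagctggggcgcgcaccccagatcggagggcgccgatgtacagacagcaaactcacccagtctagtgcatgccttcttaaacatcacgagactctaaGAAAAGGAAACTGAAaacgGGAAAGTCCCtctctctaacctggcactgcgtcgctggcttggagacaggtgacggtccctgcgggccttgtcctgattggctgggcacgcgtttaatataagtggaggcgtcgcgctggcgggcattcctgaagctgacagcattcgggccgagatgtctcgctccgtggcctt

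The decamer consensus matched windows of HLA-B, HLA-C, HLA-G, TAP1 and B2M, 5 of the 12 windows, and 11.3% of the 35116 RefSeq windows of the same length. In the HLA-B window 2 overlapping matches lay between bases -177 and -167 from the start. In the printed HLA-G window, 1 of 3 for that gene, 1 match lay between -177 and -168. The printed TAP1 window, 1 of 2, had a match between -72 and -63 and another after its start. The element GAAANNGAA matched windows of PSMB8, PSMB10, TAP1 and B2M (4 of 12, against 8.1% of all windows), with overlapping matches in TAP1 and in B2M. The TTCNNNGAA site matched windows of 2 of the genes (7.7% of all windows), CCAAT of 6 (34.6%) and TGACG of 5 (24.6%). The printed PSMB9 window held no match to the decamer or to GAAANNGAA, which says only that these letters are not in this stretch. A match is a description of letters and not a measured binding site.

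HLA-G, TAP1 and PSMB9 had the lowest ratios of the 7 measured genes, while HLA-B, HLA-E, B2M and PSMB10 lay near 0, and no gene passed the test. Over the 3 times the means were -0.86 ± 0.38 for HLA-G and -0.50 ± 0.24 for PSMB9 (SE, n = 8). HLA-B was at -0.14 ± 0.13, PSMB10 at -0.087 ± 0.12, B2M at -0.042 ± 0.13 and HLA-E at 0.062 ± 0.13. As the RNA came from whole cultures, fewer expressing cells and less RNA per cell cannot be told apart. In limma's fit to 5226 rows (genes, and features with no gene listed), 0 of 6 tested members passed at an adjusted p under 0.05. Of all rows 0 passed (0%), and 185 had an unadjusted p under 0.05, fewer than the 261 expected by chance. The adjusted p was 0.87 for HLA-G, PSMB9 and HLA-B, 0.90 for PSMB10, 0.93 for HLA-E and 0.95 for B2M. Below 0 at an unadjusted p under 0.05 were 0 of the 6 and 1.86% of rows. TAP1, with 1 array at 8 h, was not among the 6 and is described apart below. Of the 6, 5 had a mean below 0, against 52.7% of all rows, and their median was -0.11, against -0.013 for all rows.

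The arrays differed in spread. Database identifiers in the labels form 3 blocks of neighbouring numbers, called runs 1 to 3. Run 1 is sample 3 of both later times. Sample 2 of 8 h and sample 1 of both later times make up run 2, and sample 1 of 8 h with sample 2 of both later times makes up run 3. Over the tested rows the SD was 0.92 to 1.11 on the 3 arrays of run 2, 0.33 and 0.45 on those of run 1, and 0.17 to 0.23 on those of run 3. Between 6344 and 13007 features had a value on an array. The ratios hold no levels, so the plasma cell label could not be checked against the levels of its markers. Of 12 tested plasma cell markers 7 lay above 0, 5 below (against 52.7% of all rows) and 0 passed. Their median was 0.23, and on single arrays it ran from 0.064 to 0.39. Above 0 at an unadjusted p under 0.05 in limma were 2 of the 12 and 88 of the 5226 rows. The 2 with the largest mean size were CD27 at 0.55 ± 0.35 and ELL2 at -1.11 ± 0.50 (SE, n = 7 each). In run 2 CD27 was at -0.41, 1.26 and 2.85 and ELL2 at -3.15, -3.55 and -0.31, in order of time. Outside run 2 CD27 held 0.056 to 0.34 and ELL2 -0.18 to 0.22.

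HLA-G, a heavy chain best known for its restricted expression at the maternal-fetal interface, had the lowest ratio of the heavy chains on every array of run 2. The HLA heavy chain genes share near-identical stretches, so features annotated to one can take signal from another, and features of one gene need not read one transcript. The gene was at 0.10 and -2.22 on samples 1 and 2 at 8 h. At 12 h samples 1, 2 and 3 were at -3.04, 0.0080 and -0.12. At 24 h they were at -1.17, -0.19 and -0.018. The 3 arrays of run 2 thus held -3.04 to -1.17, and the other 5 held -0.19 to 0.10. How many of all rows divide this way was not counted, and run 2 had the widest spread. Outside run 2 the mean was -0.045 ± 0.11 (SD, n = 5). The 2 HLA-G features gave closely similar values on sample 2 at 8 h (-2.21 and -2.22) but -3.87 and -2.20 on sample 1 at 12 h, and -0.68 and -1.66 on sample 1 at 24 h.

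Rank within an array leaves the spread of the array aside. The HLA-G ratio stood at percentile 1.0, 1.2 and 11.3 among the tested rows on the arrays of run 2 and at 20.6 to 70.9 on the others. Values below 0 on all 3 arrays of run 2 occurred in 22.4% of the rows measured there, and in 4 of the 6 tested members, HLA-B, HLA-G, B2M and PSMB9. In limma the HLA-G mean was -0.47 without sample 2 at 8 h, -0.53 without sample 1 at 12 h, and -0.021 ± 0.11 without all of run 2. With the run as a fixed block it was -0.74 ± 0.19 (adjusted p = 0.27), an error that leaves out the spread between runs. Whether the wide spread of run 2 has a part in this ratio was not tested.

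**Figure D1:**
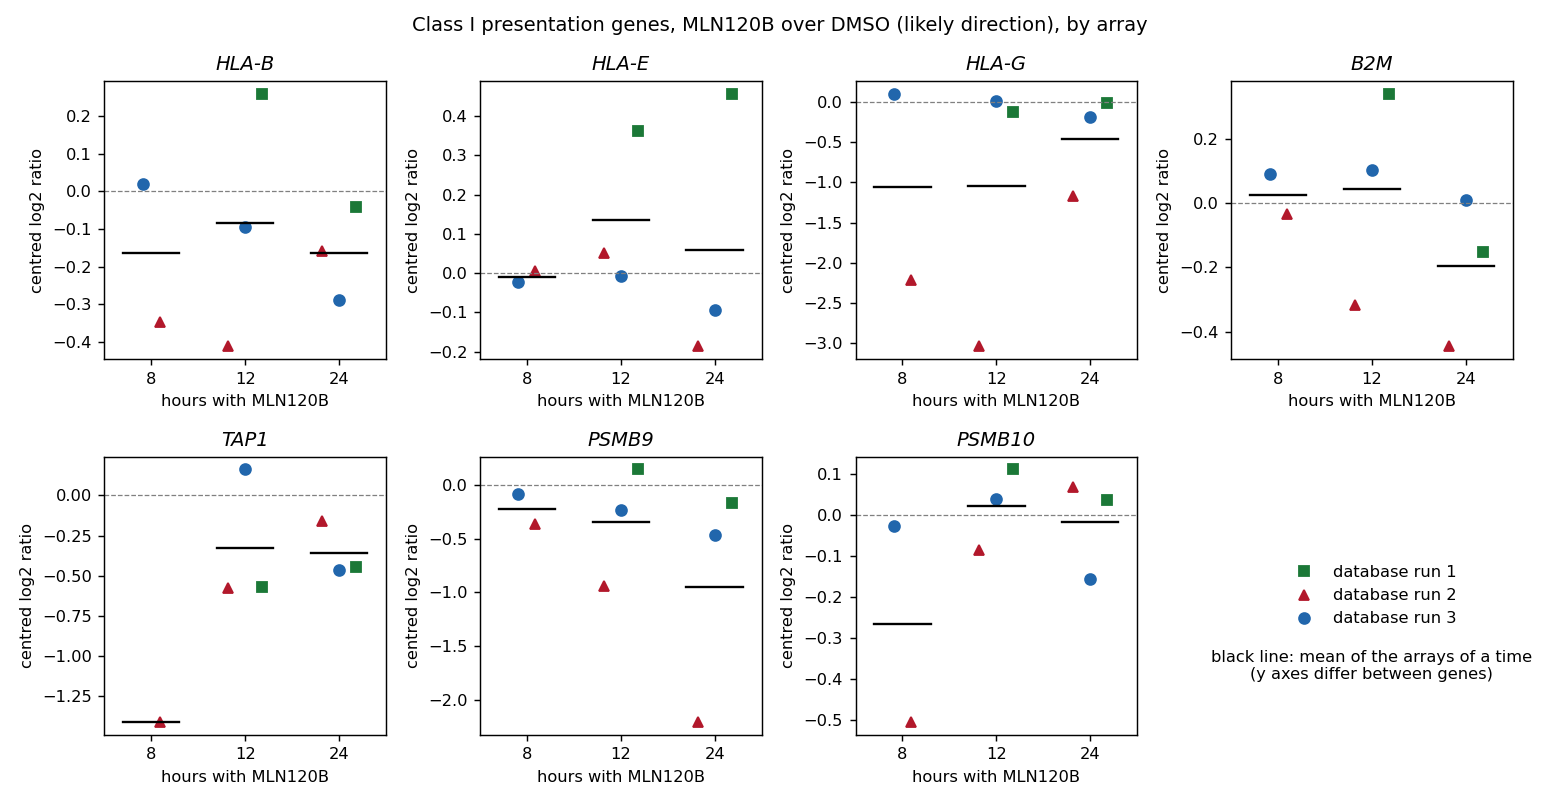
Centred log2 ratio (vertical axis, its range differing between genes) of each measured gene by hours with MLN120B; each point is an array, coloured by database run, and black lines are the means of a time. HLA-G was between -3.04 and -1.17 on the 3 arrays of run 2 and between -0.19 and 0.10 on the other 5.

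HLA-B, a classical heavy chain, was below 0 on 6 of 8 arrays. Samples 1 and 2 at 8 h held 0.019 and -0.35, samples 1, 2 and 3 at 12 h held -0.41, -0.095 and 0.26, and those at 24 h held -0.16, -0.29 and -0.041. The mean lay within a 95% interval of -0.43 to 0.15. At 24 h HLA-B was lower than 0 on 3 of 3 arrays, with a mean of -0.16 ± 0.12 (SD, n = 3). By rank it was lowest on sample 2 at 24 h, at percentile 10.3. The 5 features disagreed most within run 2: on sample 2 at 8 h the values of 4 measured features ran from -0.98 to 0.71. Their means over the arrays ran from -0.24 to 0.10, and 4 of 5 were below 0 (feature 5 was above).

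HLA-E, the heavy chain that presents leader peptides of other class I molecules to natural killer cell receptors, stood highest in run 1. That run held 0.36 at 12 h and 0.46 at 24 h, the 75.5 and 96.0 percentiles of those arrays. On the 6 arrays of runs 2 and 3 it was between -0.19 and 0.051. The mean over the 3 times had a 95% interval of -0.23 to 0.35, and its sign turned on the values as deposited (-0.068) and without run 1 (-0.043). Its 8 features with enough values fell into no common direction: means over arrays ran from -0.39 to 0.28, with 3 below 0 and 5 above. Over 28 pairs of its features the Pearson correlation across arrays ran from -0.74 to 0.79, with a median of 0.095 (7 or 8 shared arrays a pair; a description, since arrays of a run resemble each other). A further feature annotated to HLA-E had a value on 1 array alone and was left out.

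B2M, the invariant light chain shared by all class I heavy chains, lay near 0. Samples 1 and 2 at 8 h held 0.090 and -0.035. At 12 h samples 1, 2 and 3 held -0.32, 0.10 and 0.34, and at 24 h -0.45, 0.0090 and -0.15. The mean had a 95% interval of -0.33 to 0.25. Its sign turned after quantile normalization, at 0.028, and without run 2, at 0.080. The 2 features parted on sample 1 at 24 h, at -1.20 and 0.31.

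TAP1, a subunit of the peptide transporter, was below 0 on 6 of 7 arrays. That was so for 6.49% of the rows with 7 values. At 8 h only sample 2 had a value, -1.41. Samples 1, 2 and 3 held -0.58, 0.16 and -0.57 at 12 h and -0.16, -0.47 and -0.45 at 24 h. These means were -0.33 ± 0.43 at 12 h and -0.36 ± 0.17 at 24 h (SD, n = 3 each). By rank TAP1 was the lowest of the 7 genes over the arrays, with a median percentile of 7.7, and it stood at 2.5 to 7.7 on 4 arrays, both of run 1, the 8 h array of run 2 and the 24 h array of run 3. Outside run 2 it averaged -0.33 ± 0.33 (SD, n = 4), with -0.57, -0.45, -0.47 and 0.16.

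With 1 array at 8 h TAP1 was not among the rows tested. When rows with at least 1 array at each time were admitted, which gave 5961 rows, its mean over the 3 times was -0.70 ± 0.17 (SE, n = 7). The 95% interval was -1.10 to -0.30 and the adjusted p in limma 0.91. That mean gives the lone 8 h value the weight of a time, and the plain mean over the 7 arrays was -0.50 ± 0.48 (SD). TAP2, which pairs with TAP1 in the transporter, was at 0.071 ± 0.12 (SE, n = 8), with single values from -0.30 to 0.23.

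PSMB9, the inducible subunit that takes the place of PSMB6, was below 0 on 7 of 8 arrays, as were 6% of the rows with 8 values on 7 or 8 arrays. Samples 1 and 2 at 8 h held -0.080 and -0.36. At 12 h samples 1, 2 and 3 held -0.94, -0.23 and 0.15, and at 24 h -2.21, -0.47 and -0.17. The mean at 24 h was -0.95 ± 0.38 (SE). There PSMB9 was the 1 member of 6 below 0 with an unadjusted p under 0.05, as were 1.63% of rows, and its adjusted p in limma was 1.00. Without sample 1 at 24 h the mean over the 3 times was -0.29 ± 0.16. On that array only 1 of the 2 PSMB9 features had a value, so its -2.21 is that feature's value alone. Taken on their own the features were at -0.49 ± 0.25 (n = 8) and -0.30 ± 0.17 (n = 7).

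Outside run 2 PSMB9 averaged -0.16 ± 0.22 (SD, n = 5), and without run 2 the mean over the 3 times in limma was -0.15 ± 0.12. Relative to the spread of their arrays, its ratios averaged -1.21 array SDs in run 2 and -1.20 in run 3, against -0.10 in run 1. The 2 features did not share this: feature 1 averaged -1.27 in run 2 and -0.072 in run 3, feature 2 -0.50 and -0.445. On sample 1 at 8 h they held 0.26 and -0.42. Each was below 0 on 5 arrays, and their correlation over 7 arrays was 0.20. The gene's percentile was 1.2 on the 24 h array of run 2, and 12.1 at 12 h and 2.5 at 24 h in run 3. With each array divided by its SD, a setting chosen after the data were seen, the mean was -0.48 ± 0.16 (adjusted p = 0.50).

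PSMB10, which takes the place of PSMB7, lay near 0. Its values were -0.026 and -0.51 at 8 h, -0.084, 0.039 and 0.11 at 12 h, and 0.069, -0.16 and 0.036 at 24 h, in the order of the sample numbers. The 3 features went different ways in run 2. On sample 1 at 12 h they held -1.50, 0.029 and 1.22, so the gene's value near 0 there is an average of opposite ratios. On sample 2 at 8 h they held -0.85, -1.37 and 0.70. On sample 1 at 24 h only 1 of them had a value. Outside run 2 the gene was between -0.16 and 0.11.

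**Figure D2:**
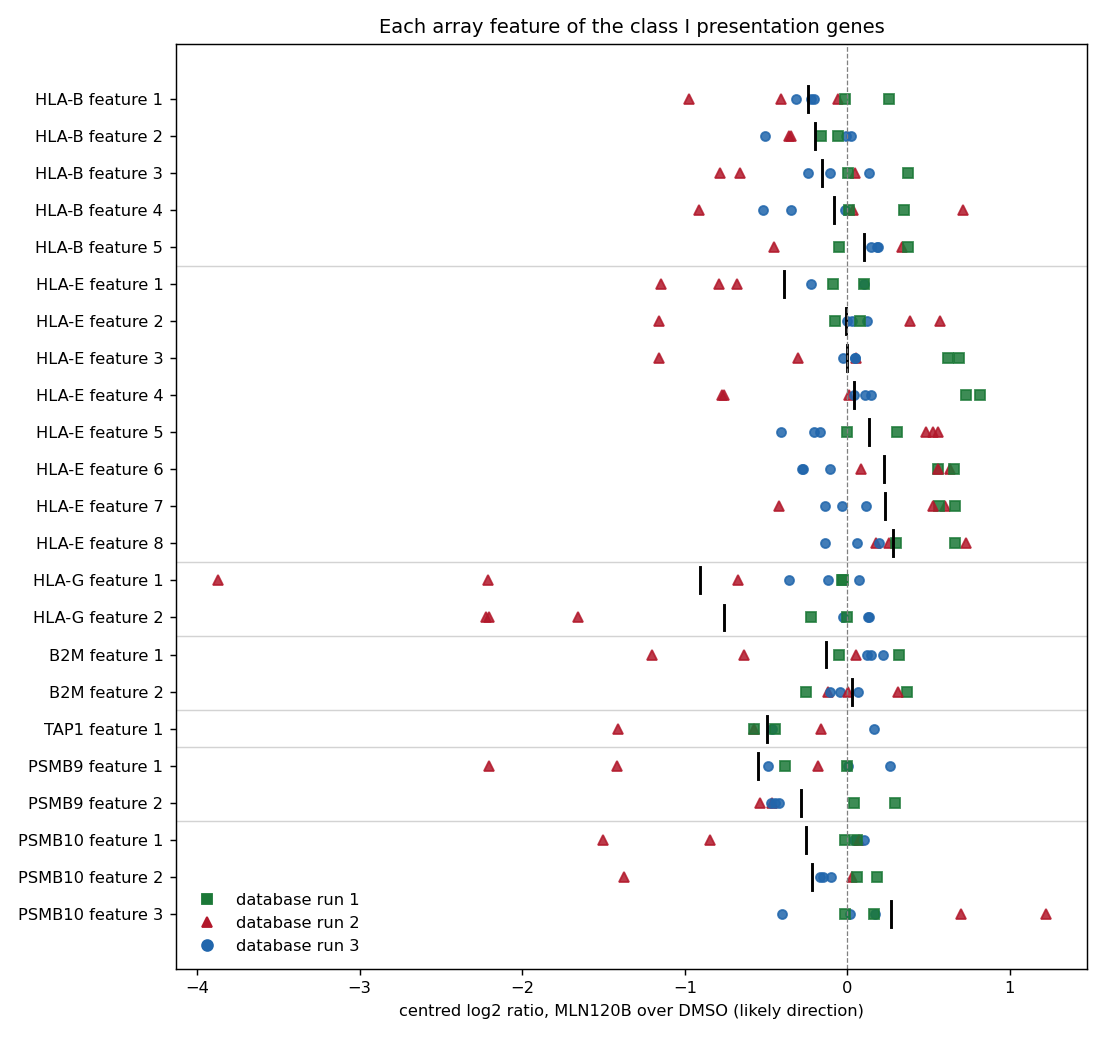
Centred log2 ratio (horizontal axis) of each of the 23 features on each array, coloured by database run; black ticks are means over arrays, and features of a gene are numbered from the lowest mean. The 2 HLA-G features lie far below 0 in run 2, whereas the features of HLA-E and of PSMB10 lie on both sides of 0.

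Over the 23 features, 15 had a mean below 0 and 8 above, against 51.9% below among the 8800 features with as many values. Tested as separate rows, 21 of them could be fitted and 0 passed in limma, the smallest adjusted p being 0.87.

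**Figure D3:**
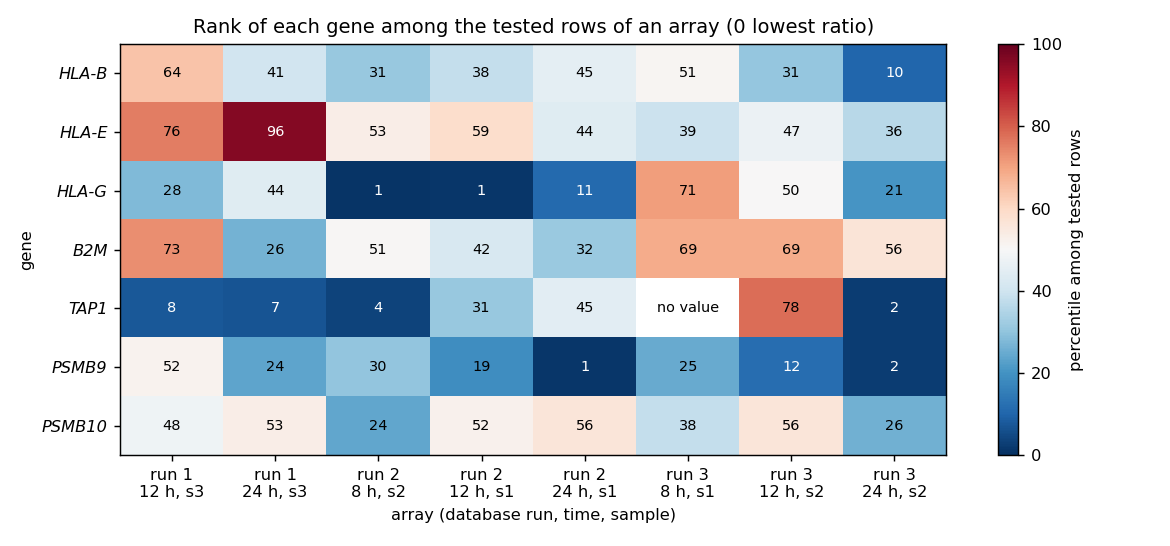
Percentile of each gene's ratio among the tested rows of an array (colour and number; 0 is the lowest ratio), with arrays ordered by database run. TAP1 was at 7.7 or lower on 4 of 7 arrays, HLA-G at 11.3 or lower on the 3 arrays of run 2, and PSMB10 between 23.9 and 56.2 throughout.

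At 24 h HLA-B, HLA-G, TAP1 and PSMB9 were below 0 on all 3 arrays, which is 4 of the 7 genes; 14.3% of all rows with 3 values at that time were. None of the tested genes passed at a single time. In limma 0 of 6 members and 0 of 5226 rows (0%) were called at 8 h, 12 h or 24 h. At an unadjusted p under 0.05 were 106, 175 and 117 rows, each fewer than the 261 expected by chance. Below 0 were 5 of 6 members at 8 h (51.3% of rows), 3 of 6 at 12 h (50.4%) and 5 of 6 at 24 h (54.1%). Of these, 0 members at 8 h (0.918% of rows) and 0 at 12 h (1.91%) had an unadjusted p under 0.05. The member medians were -0.19 at 8 h, -0.030 at 12 h and -0.18 at 24 h, and those of all rows -0.011, -0.0027 and -0.026.

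Differences between times were small against their errors, which come from a fit with no term for the run and so include spread between runs. For 24 h minus 8 h, HLA-G differed by 0.60 ± 0.97, PSMB9 by -0.73 ± 0.60, PSMB10 by 0.25 ± 0.30, B2M by -0.22 ± 0.33, HLA-E by 0.067 ± 0.33 and HLA-B by 0.0012 ± 0.33 (SE). Limma called 0 members and 0% of rows there (42 rows at an unadjusted p under 0.05). The same held for 24 h minus 12 h (36 rows) and 12 h minus 8 h (67 rows). Chance alone would give about 261 rows in each contrast. Differences below 0 were found for 2 of 6 members in 24 h minus 8 h (53.4% of rows), 5 of 6 in 24 h minus 12 h (52.1%) and 1 of 6 in 12 h minus 8 h (49.5%). None of these had an unadjusted p under 0.05, against 0.364%, 0.383% and 0.689% of rows in the same order.

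PSMB9 and B2M, 2 of the 6 tested members, were lower at 24 h than at 12 h within each of the 3 runs, as were 21% of rows. PSMB9 differed by -0.32, -1.27 and -0.24 in runs 1, 2 and 3, and B2M by -0.49, -0.13 and -0.095. Both were also lower at 24 h than at 8 h in runs 2 and 3, by -1.85 and -0.39 for PSMB9 and by -0.41 and -0.080 for B2M. The run 2 values of PSMB9 include the array with 1 of its 2 features. Those of B2M average features that went opposite ways, at -1.20 and 0.31 at 24 h and -0.64 and 0.0060 at 12 h. HLA-G, by contrast, differed by 1.87 between 24 h and 12 h in run 2, by 0.11 in run 1 and by -0.20 in run 3. HLA-B, HLA-E, TAP1 and PSMB10 had differences of both signs across the runs.

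How alike the members were over arrays differed between pairs. With each array divided by its SD, Pearson correlations over 21 pairs of genes ran from -0.20 to 0.71, with a median of 0.29 (7 or 8 arrays). HLA-B was most like PSMB10 (0.71), and PSMB9 most like HLA-B (0.67). TAP1 and PSMB9, the divergent neighbours whose promoter windows are printed above, stood at -0.19. Among 2188 other named genes with 8 values, those most like the median of the members were PPP2R5D (0.97), CSNK2B (0.93), SNHG17 (0.91), HLA-DPB1 (0.91) and PPP4C (0.89), and those least like it EIF4H (-0.92) and SOS2 (-0.82). These are descriptions over arrays that share runs.

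The rest of the class I pathway lay on both sides of 0. Of 8 tested genes of peptide loading and trimming, 5 were above 0, 3 below (against 52.7% of all rows) and 0 passed. Their median was 0.048, with a range of -0.23 to 0.42. TAPBP, the tapasin that bridges TAP to the heavy chain, was at 0.42 ± 0.19, and CALR, the chaperone calreticulin of the loading complex, at 0.31 ± 0.15 (SE, n = 8). TAPBP was at 0.83 and 0.74 in run 1, -0.10 to 0.076 in run 3, and 0.079 to 1.52 in run 2. Its mean was 0.21 when features with fewer values were averaged in, and 0.23 without run 2. The heavy chain-like genes outside the members, 5 tested, had a median of 0.054, with FCGRT, the neonatal Fc receptor, at 0.14 ± 0.24 (n = 7) and CD1A, which presents lipids, at -0.11 ± 0.14 (n = 8). FCGRT turned to -0.24 without run 2, and CD1A to 0.052.

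The standard catalytic subunits lay near 0, and 0 of 2 passed. PSMB6 was at -0.064 ± 0.14 and PSMB7 at -0.039 ± 0.18 (SE, n = 8), with adjusted p of 0.93 and 0.97 in limma. PSMB7 turned to 0.049 after quantile normalization, and without run 2 PSMB6 was at 0.030 and PSMB7 at 0.12. PSMB4 and PSMA7, structural subunits of the 20S core, were at -0.070 ± 0.23 and -0.032 ± 0.15, and both turned above 0 with the run as a fixed block (0.0094 and 0.032) but not with it as a random block (-0.036 and -0.0049). PSME1, a subunit of the PA28 activator that interferon induces, was at 0.075 ± 0.14, and PSMF1, a proteasome inhibitor, at 0.15 ± 0.16. PSME1 was -0.054 on the values as deposited.

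Genes that control class I transcription lay mostly below 0. Of 13 tested, 9 were below 0, against 52.7% of all rows, and 0 passed, with a median of -0.15. The list's median was below 0 on 8 of 8 arrays, where the median of all rows ran from -0.14 to 0.13. NFKB2, the precursor of p52, was at -0.998 ± 0.25 and RELB, its partner, at -0.57 ± 0.18 (SE, n = 8). The adjusted p in limma's main fit was 0.87 for both. NFKB2 did pass in limma after quantile normalization (-1.37, adjusted p = 0.036) and with arrays divided by their SD (-1.12, adjusted p = 0.038). The latter setting was chosen after the data were seen, and NFKB2 did not pass in the other 21 alternatives. Without run 2 it was at -0.60. RELB was at 0.0, 0.30 and -0.90 on the 8 h, 12 h and 24 h arrays of run 2. Its mean was -0.43 when features with fewer values were averaged in. Interferon-induced genes had a median of -0.089 over 21 tested genes, 14 below 0 (against 52.7% of all rows) and 7 above. BST2 (tetherin) was at -0.40 ± 0.27 and IRF9, a subunit of the interferon-activated complex, at -0.32 ± 0.17. BST2 was at -0.14 without sample 1 at 12 h, and without run 2 BST2 was at -0.014 and IRF9 at -0.031. Their list median was below 0 on 2 of 8 arrays.

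MHC class II genes and the NF-κB feedback genes lay further below 0 than the class I genes, though no test set the lists against each other. Class II genes had a median of -0.38 over 8 tested members, 7 of them below 0, against 52.7% of all rows. HLA-DRA was at -0.71 ± 0.20 and CD74 at -0.60 ± 0.24. The 4 feedback genes had a median of -0.84, with NFKBIA at -0.92 ± 0.13 and TNFAIP3 at -0.84 ± 0.18 (SE, n = 8). These lists were below 0 on 8 of 8 arrays, and the median of the measured class I members was below 0 on 6 of 8. On single arrays that median was -0.001 and -0.36 at 8 h, -0.41, 0.0080 and 0.15 at 12 h, and -0.19, -0.19 and -0.041 at 24 h.

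**Figure D4:**
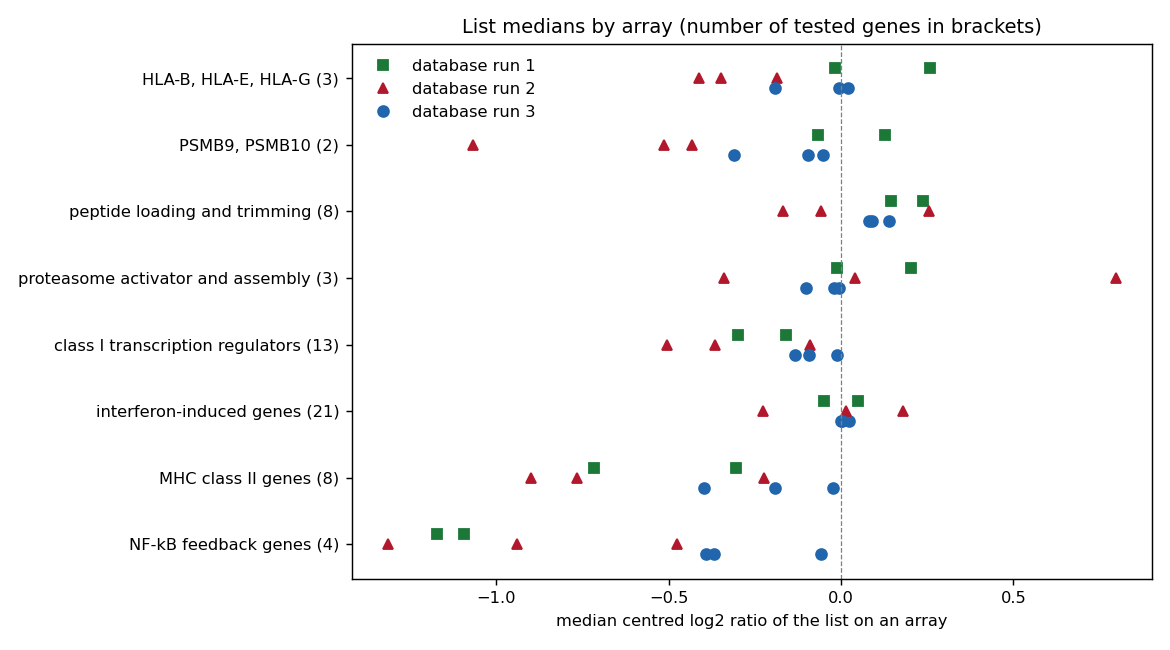
Median centred log2 ratio (horizontal axis) of each gene list on each array, coloured by database run, with the number of tested genes in brackets. The NF-κB feedback and MHC class II lists lie below 0 on 8 of 8 arrays, and the 3 heavy chains on 6 of 8.

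Markers of other cell types lay on both sides of 0. The medians over the 3 times were -0.005 for 10 T and NK cell markers, -0.17 for 4 myeloid, 0.11 for 5 stromal and 0.089 for 4 erythroid markers, and 0 of them passed in limma with all 8 arrays. Below 0 were 5 T and NK, 3 myeloid, 2 stromal and 0 erythroid markers, against 52.7% of all rows. The highest mean was 0.25 in the T and NK list and 0.195 in the myeloid list. The genes named next are the 2 of each list with the largest mean size. CD3D and GATA3 of the T and NK list were at -1.33 ± 0.77 and -0.74 ± 0.54, CD68 and ITGAM of the myeloid list at -0.50 ± 0.29 and -0.23 ± 0.18 (SE, n = 8). LEPR and BGN of the stromal list were at -0.54 ± 0.23 (n = 8) and 0.38 ± 0.27 (n = 7), HBG1 and KLF1 of the erythroid list at 0.12 ± 0.12 (n = 8) and 0.091 ± 0.14 (n = 7). Without run 2 CD3D, GATA3 and ITGAM turned above 0, BGN below it, and CD68 was at -0.045; without sample 1 at 12 h CD68 was at -0.22. CD3D was at -8.99 on sample 2 at 8 h and between -0.12 and 0.60 on the other arrays. Its mean was -2.83 without run 3 or without sample 1 at 8 h, each of which leaves that array alone at 8 h. It was 0.16 without that array, and -0.62 when features with fewer values were averaged in. GATA3 was at -5.10 on sample 1 at 12 h and between -0.98 and 0.26 elsewhere. The plasma cell gene ELL2 was at -2.32 without run 3. Array medians of the T and NK list ran from -0.34 to 0.51 and those of the myeloid list from -0.94 to 0.12. The lowest myeloid values were in run 2, whose arrays averaged -0.60 for that list against -0.093 in run 1 and 0.060 in run 3. HLA-G was also lowest there, as were CD3D, GATA3, LEPR and ELL2, while BGN and KLF1 were highest there. Run 2 had the widest spread of the runs. For the T and NK, stromal, erythroid and plasma cell lists run 2 averaged 0.003, -0.043, 0.14 and 0.19. Any part of the marker lists in the HLA-G ratio was not tested.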

How the data were processed

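RNA of L363 cells was read on 8 2-colour arrays (8 h, 12 h and 24 h with 2, 3 and 3 samples). The authors' deposited values are log2 ratios, 1 column per array. Base 2 is an assumption; a size of 12.4 on 1 array is beyond natural log ratios of 16-bit signals (11.1). How they corrected background, filtered, normalized and directed the ratios is not given in the sources used here. No signal intensities were used, and precision is limited by the number of arrays.

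Each array was centred on its median. Features were named from the platform annotation (10169 with 1 gene, 4 with several, 5073 with none), with symbols updated through RefSeq names (10128 by Entrez identifier, 17 by accession, 24 kept). Features with values on at least 6 arrays were averaged per gene, and rows needed 2 arrays at each time. Limma 3.58.1 in R 4.3.3 (lmFit, eBayes) fitted a mean per time over all 8 arrays with 5 residual degrees of freedom, against 0, which leaves out the spread of the DMSO control. Tests were 2-sided with Benjamini-Hochberg adjustment over all rows at 0.05. The fit was tested on simulated data. Python 3.11.15 with pandas 2.3.3, numpy 2.4.6 and matplotlib 3.10.9 did the rest. Members and lists were chosen with earlier results of these data known. Named genes were all members, the 2 genes of each other list with the largest mean size, PSMB6, PSMB7 and TAP2, and the genes most like the members over arrays; NLRC5, also under the rule, had too few values to be tested. Samples 1, 2 and 3 at 12 h and 24 h share a number and a run, and their deviations from the time means correlated at 0.19, 0.28 and 0.27 over 3368 rows. As number and run coincide there, these values cannot tell which of them pairs the samples. The 8 h samples correlated with those of the same number at -0.33 to -0.16 and with those of the same run at 0.16 to 0.33. With 2 arrays at 8 h these values mirror each other by construction. Alternatives were no centring, quantile or scale normalization, other filters, features on their own, blocks for the sample number or for the run (fixed or random), runs or arrays left out, array weights, robust variances and, added later, arrays divided by their SD.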

Additional observations from a re-analysis of the deposited data

Results flagged for a closer look

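Of 31 series of values examined (7 genes, 23 features and the members' median, over 7 or 8 arrays), 4 had 1 array far from the others, by a gap to the nearest array that is large against the whole range; chance gives about 1 in 20 for independent series on arrays of equal spread, and here genes share their features' values and run 2 is wider than the other runs. PSMB9 was at -2.21 on sample 1 at 24 h, where 1 of its 2 features had a value, and between -0.94 and 0.15 on the other 7 arrays. PSMB10 was at -0.51 on sample 2 at 8 h, with -0.16 to 0.11 elsewhere, and its feature 2 was at -1.37 on that array. HLA-E feature 2 was at -1.16 on sample 1 at 24 h. Both arrays belong to run 2, the run with the widest spread.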

How the results depend on the processing

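Member genes called numbered 0 in each of the 7 contrasts under every alternative run. HLA-B, HLA-G, PSMB9 and PSMB10 kept a mean below 0 under all 23 alternatives; ranges were -1.46 to -0.021 for HLA-G, -0.71 to -0.15 for PSMB9, -0.27 to -0.021 for HLA-B and -0.22 to -0.0036 for PSMB10, whose feature 3 was at 0.22 on its own, and the smallest adjusted p was 0.27. The members' median stayed between -0.24 (values as deposited, where the median of all rows shifted by -0.11) and -0.012 (without run 2). The causes of the changes below were not tested. Leaving out single arrays moved that median between -0.18 and -0.048, and gave 0 to 25 called rows over the 3 times, 0 to 67 at 8 h, 0 to 1 at 12 h, 0 to 2 at 24 h, 0 to 42 for 24 h minus 8 h, 0 to 2 for 24 h minus 12 h and 0 to 40 for 12 h minus 8 h; the counts of 25, 67, 42 and 40 came without sample 1 at 8 h, which leaves 1 array at that time, assumed to vary like the others.

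Called rows otherwise numbered 2 over the 3 times and 7 at 24 h after quantile normalization, 3 at 8 h and 3 for 12 h minus 8 h with the sample number as a replicate block, 6 over the 3 times with the run as a fixed block, and 1 at 12 h and 1 for 12 h minus 8 h without run 1. Without run 3 they were 13 over the 3 times, 23 at 8 h, 2 at 24 h, 11 for 24 h minus 8 h, 1 for 24 h minus 12 h and 13 for 12 h minus 8 h. Array weights, whose estimation stopped short of convergence, gave 2 at 24 h, and arrays divided by their SD 1 over the 3 times and 2 at 24 h. The replicate block changed no other call.

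Means that changed sign were, on the values as deposited, HLA-E -0.068, PSME1 -0.054, HBG1 -0.011 and TAP2 -0.059. After quantile normalization they were B2M 0.028, FCGRT -0.15, CD1A 0.0020, PSMB7 0.049 and HBG1 -0.012, and after scale normalization B2M 0.022, FCGRT -0.10, CD1A 0.00082 and PSMB7 0.033. Averaging all features gave ITGAM 0.085. With the sample number or the run as a fixed block PSMB7 was at 0.010, PSMB4 at 0.0094 and PSMA7 at 0.032; with the run as a random block (consensus correlation 0.269) they kept their sign. HLA-E was at -0.043 without run 1. Without run 2 B2M was at 0.080, FCGRT -0.24, CD1A 0.052, PSMB6 0.030, PSMB7 0.12, PSMA7 0.055, ELL2 0.089, CD3D 0.16, GATA3 0.10, ITGAM 0.069 and BGN -0.17; without run 3 PSMB4 was at 0.13 and PSMA7 at 0.0097. Array weights gave B2M 0.029, CD1A 0.023, PSME1 -0.0086 and PSMA7 0.033, and arrays divided by their SD B2M 0.049, FCGRT -0.19, CD1A 0.038 and PSMB7 0.057. Leaving out single arrays placed HLA-E between -0.0049 and 0.10, B2M between -0.092 and 0.018, FCGRT between -0.071 and 0.36, PSMB7 between -0.16 and 0.10, PSMB4 between -0.25 and 0.12, PSMA7 between -0.12 and 0.046 and CD3D between -2.83 and 0.16.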
